A study of Caenorhabditis elegans with 8 samples.

Results

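The effect of culture temperature was examined in germlines of *nmad-1* worms of *Caenorhabditis elegans*, by setting the 2 libraries from 25°C against the 2 libraries from 20°C. These are 4 of the 8 libraries of a series in which WT (N2) and *nmad-1* germlines were sequenced at both temperatures, with 2 libraries per group, and they were chosen by genotype and temperature alone. All 4 groups were labelled as germline at the L4 larval stage, and mRNA was taken from pooled germlines of worms fed on bacteria that lack the Dam and Dcm methylases. The *nmad-1* strain carries the ok3133 deletion, which removes nearly all of the AlkB domain of NMAD-1, a putative DNA demethylase of the AlkB family, and WT has the gene intact.

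The hermaphrodite germline of *C. elegans* is a tube in which stem cells at the distal end divide under GLP-1/Notch signalling, enter meiosis, and first form sperm and later oocytes. The choice of the sperm fate depends on FOG-1, an RNA-binding protein of the CPEB family, and FOG-3, a protein of the Tob family. At elevated temperature animal cells commonly raise their heat shock chaperones. WT worms kept at 25°C are within their fertile range and grow faster than at 20°C. They pass through the moults and the sperm to oocyte switch sooner. For *nmad-1* worms the paper reports a stronger egg laying defect and a clearer developmental delay at the higher temperature. It also reports complete sterility when the parent was kept at that temperature from the egg stage.

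The values are RSEM expected counts divided by a size factor. The tables of the 2 temperatures were scaled apart by the authors, so ribosomal RNA genes were dropped and the libraries were rescaled to the same total. Rescaling each library to the same total cancels its size factor. Temperature still went with the table of origin, and any other difference between the tables cannot be told apart from temperature. Of 46718 genes outside ribosomal RNA, 12923 had a mean of at least 10 over the 4 *nmad-1* libraries and were tested with limma on log2(value + 1), a scale that understates the change of low genes. The depth was between 19673632 and 31738127 reads per *nmad-1* library, and between 24.5% and 36.1% of the deposited values fell on ribosomal RNA genes, with the highest share in library A at 20°C.

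The transcript of the deleted gene, *nmad-1* (WBGene00017304, chromosome III), was low in all 4 libraries. Its value was 123 and 113 in libraries A and B at 20°C and 179 and 176 in libraries A and B at 25°C. Both 25°C values lay above both 20°C values, and the log2 fold change was 0.59 (standard error 0.30, limma adjusted p = 0.31). On the scale common to all 8 libraries, *nmad-1* was between 131 and 208 in the mutant and between 458 and 643 in WT.

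Germline transcripts were abundant in every library. *gld-1*, a translational repressor of early meiosis, was between 20747 and 25326, and *glp-1*, the Notch receptor of the stem cells, was at 8817 and 9700 at 20°C and 10509 and 10015 at 25°C (log2 fold change 0.15, limma adjusted p = 0.38). Transcripts of tissues next to the gonad were present as well, and they differed between libraries of 1 group. The 34 muscle genes, none of which was at 0 in all 4 libraries, summed to 168812 in library A and 64659 in library B at 20°C and to 51944 and 54546 at 25°C. The 33 intestinal genes summed to 152608 and 375238 at 20°C and to 123616 and 384993 at 25°C. Library A at 20°C thus stood apart in muscle, and library B was the higher in intestine at each temperature. In such bulk samples, fewer cells of a type and less RNA per cell cannot be told apart.

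With a limma adjusted p under 0.05 as the threshold, 12 genes passed, which is 0.0929% of the genes tested. The 9 that rose (0.0696%) included the sperm fate genes *fog-1* and *fog-3*, the small RNA gene *snpc-1.3* and the infection response gene *irg-5*, and the 3 that fell (0.0232%) were *C39D10.7*, *skpo-1* and the cuticle collagen *col-17*. At an unadjusted p under 0.05 there were 1918 higher genes (14.8%) and 900 lower genes (6.96%). Both 25°C values lay above both 20°C values in 4676 genes (36.2%), and below both in 2581 (20.0%). The median log2 fold change of all genes was 0.13.

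The number of genes past the threshold depended on single libraries and on the scaling. It was 0 without library A at 25°C (1208 at an unadjusted p under 0.05 by limma), 0 without library B at 25°C (1730), 1767 without library A at 20°C and 990 without library B at 20°C, and in each of the last 2 cases the 12 genes were among them. With median ratio scaling, which moved the median of all genes to 0.01, it was 345, with 166 genes higher and 179 lower against 9 and 3. With the spread estimated over all 8 libraries it was 1994, with 1325 genes higher (10.6%) and 669 lower (5.34%). With upper quartile scaling no gene passed by limma, and 2774 had an unadjusted p under 0.05.

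**Figure D1:**
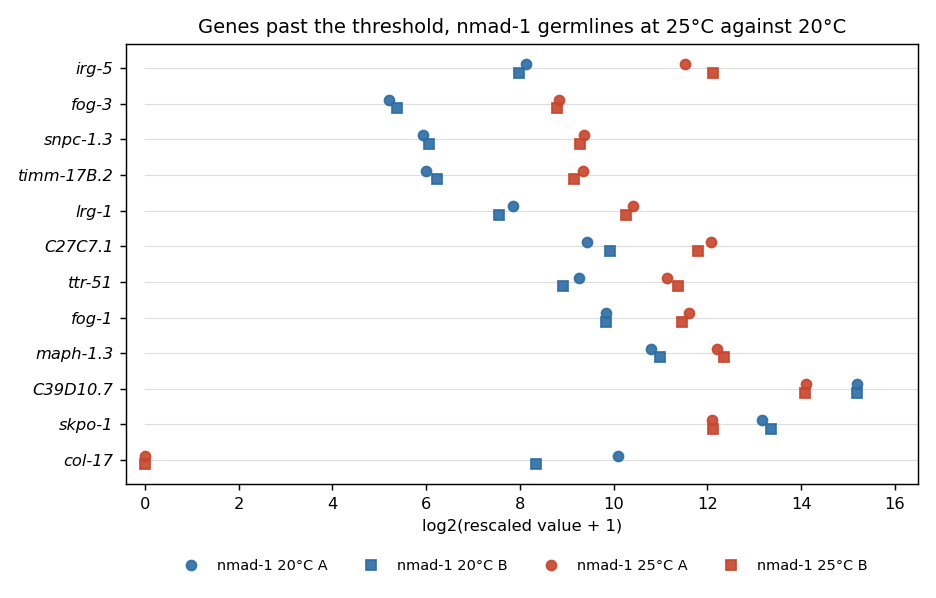
Rescaled values of the 12 genes past the threshold in each of the 4 *nmad-1* libraries, as log2(value + 1) on the horizontal axis. Circles are library A and squares library B, blue is 20°C and red is 25°C. For every gene the pair at 25°C lies wholly to one side of the pair at 20°C, and *col-17* is at 0 in both 25°C libraries.

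Both of the genes of the germline stem cell and meiotic entry list that passed direct germ cells to the sperm fate. *fog-1* was at 908 and 910 in the 20°C libraries and at 3122 and 2811 in the 25°C libraries. The replicates lay close together at each temperature, and *fog-1* rose by 1.70 on the log2 scale (standard error 0.12, limma adjusted p = 0.036), which is 3.26-fold in the means. *fog-3* was at 35.8 and 40.4 at 20°C and at 456 and 442 at 25°C. It rose by 3.53 (standard error 0.31, limma adjusted p = 0.040), with no overlap of the groups, and was 11.8-fold higher in the means. The rise of both genes was nearly the same against each 20°C library alone: without library A it was 1.70 for *fog-1* and 3.44 for *fog-3*, and without library B it was 1.71 and 3.61.

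No other gene of the sex determination and early germline lists passed the threshold. Of the 22 stem cell and meiotic entry genes tested, 10 lay above (45.5%) and 6 below (27.3%), with a median log2 fold change of 0.13, equal to that of all genes, and 6 were higher and 2 lower at an unadjusted p under 0.05. With the spread estimated over all 8 libraries, 6 of them passed as higher and 1 as lower, beside 10.6% and 5.34% of all genes. *fbf-1*, a PUF repressor that maintains stem cells and promotes the switch to oocytes, was at 796 and 930 at 20°C and at 1629 and 1488 at 25°C (log2 fold change 0.85, limma adjusted p = 0.083). Of the 18 sex determination genes, in which *fog-1* and *fog-3* are not counted, 3 lay above (16.7%) and 6 below (33.3%), with a median of -0.04. None passed the threshold (1 higher and 4 lower at an unadjusted p under 0.05). Among all genes 36.2% lay above and 20.0% below. *fem-3*, which promotes male fates, was at 1168 and 1432 at 20°C and at 2338 and 1833 at 25°C (log2 fold change 0.68, limma adjusted p = 0.12).

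Sperm structural genes could not be placed, because the 20°C libraries disagreed about them. The major sperm protein genes encode the motility protein of nematode sperm, from copies so alike that reads may be shared out between them. They summed to 4217 in library A and 317 in library B at 20°C, and to 3619 and 5420 at 25°C. Library A at 20°C was thus within the range of the 25°C libraries and library B far below it. Of the 27 family members tested, 8 lay above both 20°C values (29.6%) and none below, beside 36.2% and 20.0% of all genes. None of the 27 passed the threshold (1 higher at an unadjusted p under 0.05), and 5 of all 35 members were at 0 in all 4 libraries. The median log2 fold change was 1.95 with all libraries, 3.68 without library A at 20°C and 0.12 without library B. *gsp-3*, a phosphatase of sperm, had the same pattern: 98.5 and 9.56 at 20°C and 84.3 and 137 at 25°C (log2 fold change 1.74, standard error 1.07, limma adjusted p = 0.38). *fog-1* and *fog-3* were nearly equal in the 2 libraries at 20°C, and a link between their rise and sperm content was not tested.

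Of the 37 sperm genes outside the family, 16 lay above (43.2%) and 1 below (2.70%), beside 36.2% and 20.0% of all genes. None passed the threshold, and 5 were higher at an unadjusted p under 0.05. The sum of the list was 3077 and 1263 at 20°C and 3471 and 4638 at 25°C. Its median log2 fold change of 1.79 was 0.19 without library B at 20°C. One of the 16, *spe-15*, a myosin VI used in sperm formation, was at 286 and 190 at 20°C and at 638 and 804 at 25°C (log2 fold change 1.61, limma adjusted p = 0.083).

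*snpc-1.3* is a subunit of the complex that transcribes piRNA genes of the male germline. Its values were 59.9 and 65.5 at 20°C and 655 and 620 at 25°C, and it rose by 3.33 on the log2 scale (standard error 0.26, limma adjusted p = 0.036), about as much as *fog-3*. *ppw-2*, an Argonaute, was at 3026 and 3456 at 20°C and at 6277 and 6319 at 25°C (log2 fold change 0.96, limma adjusted p = 0.055). *prg-2*, a close relative of the Piwi gene *prg-1*, had the opposite order, with 7766 and 7037 at 20°C and 3973 and 3493 at 25°C (log2 fold change -0.99, limma adjusted p = 0.055). The 44 genes of P granules and small RNA pathways were split, with 14 above (31.8%) and 13 below (29.5%). Among all genes the shares were 36.2% and 20.0%. The median of the 44 was 0.07 and turned to -0.05 with median ratio scaling.

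The remaining increases had no role in common that the lists cover. *irg-5*, known from its induction by bacterial pathogens, was at 280.0 and 250.0 at 20°C and at 2920 and 4468 at 25°C. It had the largest rise of the 12 genes, 3.77 on the log2 scale (standard error 0.22, limma adjusted p = 0.036). *timm-17B.2*, a homologue of the mitochondrial import channel TIM17, was at 62.6 and 74.3 at 20°C and at 650 and 572 at 25°C (log2 fold change 3.14, limma adjusted p = 0.036). *lrg-1*, *C27C7.1*, *ttr-51* (a transthyretin-related gene) and *maph-1.3* (a homologue of microtubule-associated proteins) rose by 2.63, 2.27, 2.16 and 1.39 at the same adjusted p of 0.036 by limma.

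Of the decreases, *C39D10.7* (chromosome X) was the most even. It was at 37406 and 37500 at 20°C and at 17550 and 17256 at 25°C, and fell by 1.11 on the log2 scale (standard error 0.07, limma adjusted p = 0.036). *skpo-1*, a peroxidase of the epidermis that acts in defence against bacteria, was at 9198 and 10419 at 20°C and at 4375 and 4446 at 25°C, and fell by 1.15 (standard error 0.10, limma adjusted p = 0.036). *col-17* was at 1098 and 322 at 20°C and was not detected in either 25°C library. With 3 reads per library as the most that could have gone unseen, it was at least 236-fold lower at 25°C, and this limit covers counting error only.

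*col-17* was the extreme of a group of cuticle genes. These encode collagens and other proteins of the exoskeleton that the epidermis secretes at each moult. A cut was set after the values were seen: at least 50 in both 20°C libraries and less than 10 in both 25°C libraries. Of the 12923 genes tested, 17 met it. The lists of cuticle collagens and of epidermis and cuticle structure held 91 and 35 of the genes tested. To these lists belonged 14 of the 17. The other 3 were *C34F6.1*, *abu-8* and *grl-7*. Only 5 genes had the reverse pattern (*BE0003N10.6*, *C35B1.4*, *F11D11.3*, *Y105C5A.25* and *pals-6*), and none of them is in these lists.

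**Figure D2:**
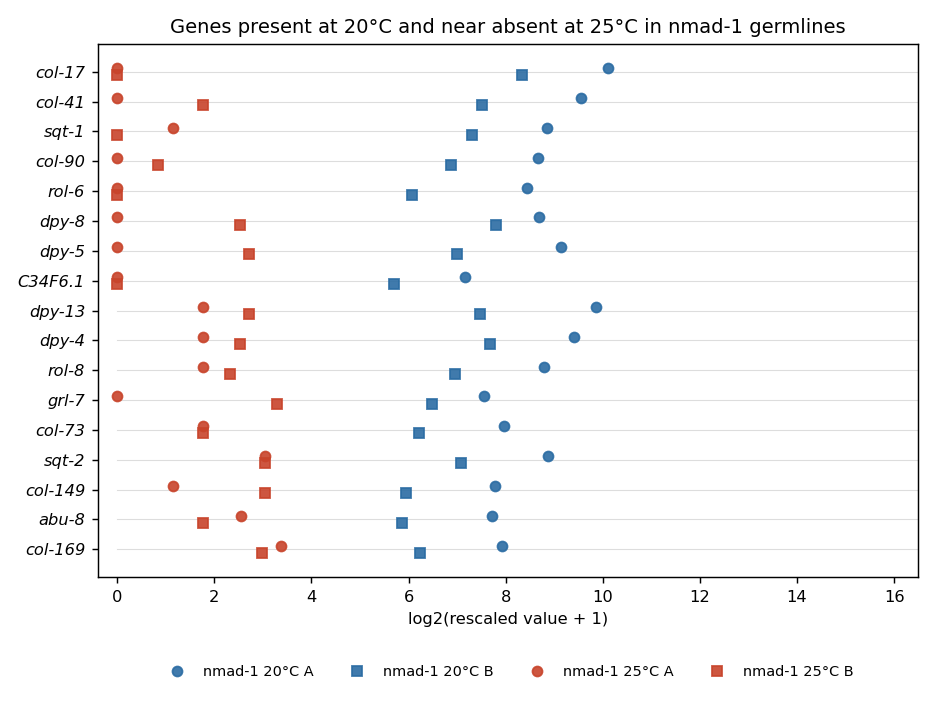
Rescaled values of the 17 genes with at least 50 in both 20°C libraries and less than 10 in both 25°C libraries, as log2(value + 1). Circles are library A and squares library B, blue is 20°C and red is 25°C. In all 17 genes library A at 20°C is the highest, library B at 20°C is second, and both 25°C libraries are near 0.

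*sqt-1*, a collagen that shapes the body, was at 462 and 157 at 20°C and at 1.204 and 0 at 25°C (log2 fold change -7.51, limma adjusted p = 0.055). *rol-6*, another body shape collagen, was at 345 and 66.2 at 20°C and at 0 in both 25°C libraries, at least 68.5-fold lower (limma adjusted p = 0.066). *dpy-13* was at 925 and 177 at 20°C and at 2.41 and 5.59 at 25°C (log2 fold change -6.42, limma adjusted p = 0.067). Library A at 20°C held more of each than library B. In these genes the spread between the 20°C libraries was a few-fold. The distance to the 25°C libraries was wider, but the cut that picked the genes required a gap between the groups. The transcript of *col-19*, the adult collagen, was detected at both temperatures. It was at 570 and 500 at 20°C and at 520 and 353 at 25°C (log2 fold change -0.32, limma adjusted p = 0.47).

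Over the whole lists, 37 of 91 cuticle collagens (40.7%) and 21 of 35 epidermal genes lay below without overlap, against 20.0% of all genes. Of the collagens, 21 (23.1%) lay above, such as *col-140*, at 1744 and 1563 at 20°C and at 2581 and 2606 at 25°C (log2 fold change 0.65, limma adjusted p = 0.084). The medians were -0.80 for the collagens and -1.48 for the epidermal genes, and -0.21 and -1.08 without library A at 20°C. *col-17* alone passed the threshold, and with the spread estimated over all 8 libraries 28 collagens and 15 epidermal genes were lower and 2 and 1 were higher, beside 5.34% and 10.6% of all genes. The other somatic lists moved in part along with these. Of 34 muscle genes 21 lay below and 1 above, and of 34 neuronal genes 14 lay below and 4 above, and their medians of -0.90 and -0.82 were -0.21 and -0.07 without library A. The neuronal genes summed to 34789 and 17523 at 20°C and to 19322 and 19116 at 25°C. *unc-54*, the main myosin of body wall muscle, was at 31885 and 10554 at 20°C and at 6975 and 9511 at 25°C (log2 fold change -1.17, limma adjusted p = 0.24). *snb-1*, the synaptobrevin of synaptic vesicles, went against its list, with 2453 and 2226 at 20°C and 3637 and 3068 at 25°C (log2 fold change 0.52, limma adjusted p = 0.12). The part of the somatic tissue in the cuticle result was not tested.

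In the intestine list no gene passed (3 higher and 4 lower at an unadjusted p under 0.05), and the median was 0.14. It was 0.65 without library A at 25°C, -0.56 without library B at 25°C and -0.04 without library A at 20°C, so that single libraries set its direction. The yolk protein genes did not move as one. *vit-3* was at 10833 and 29733 at 20°C and at 1843 and 2543 at 25°C (log2 fold change -3.05, limma adjusted p = 0.075), and *vit-4* had much the same values, from 11465 and 31776 to 2580 and 3122. Both 25°C values of these near-identical genes, among which reads can be split, lay far below. *vit-2* instead overlapped, with 29310 and 93616 at 20°C and 48636 and 169679 at 25°C (log2 fold change 0.79, limma adjusted p = 0.54). Without library A at 20°C the log2 fold change of *vit-2* was -0.04, so that its direction turned. Of the 84 C-type lectins tested, 28 lay above (33.3%) and 16 below (19.05%), near the 36.2% and 20.0% of all genes. Their median of 0.61 was 0.19 without library B at 20°C and 0.09 without library B at 25°C. *clec-190* was at 999 and 652 at 20°C and at 130 and 101 at 25°C (log2 fold change -2.81, limma adjusted p = 0.055), whereas *clec-52* was at 59.0 and 66.9 at 20°C and at 287 and 658 at 25°C (2.77, limma adjusted p = 0.082).

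Heat shock chaperones refold proteins damaged by heat. None of the 37 tested lay above both 20°C values at 25°C, where 36.2% of all genes did, and 19 lay below (51.4%, against 20.0%). None passed the threshold in either direction, 16 were lower and 0 higher at an unadjusted p under 0.05, and the median log2 fold change was -0.20. It was -0.32 with median ratio scaling and -0.37 without library A at 20°C. *hsp-1*, the constitutive HSP70, was the most abundant, at 71883 and 78267 at 20°C and at 41743 and 51496 at 25°C (log2 fold change -0.69, limma adjusted p = 0.084). *daf-21*, the cytosolic HSP90, was at 64788 and 69294 at 20°C and at 38767 and 44580 at 25°C (-0.69, limma adjusted p = 0.071). Neither pair overlapped.

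The chaperonin folds actin and tubulin, and all 8 of its subunit genes tested lay below. *cct-5* was at 9137 and 9416 at 20°C and at 5720 and 6059 at 25°C (log2 fold change -0.66, limma adjusted p = 0.064), and *cct-2* and *cct-8* had -0.66 and -0.70 at the same adjusted p. With the spread estimated over all 8 libraries, 14 of the 37 chaperone genes passed the threshold, all of them lower, beside 5.34% of all genes. The small, heat-inducible hsp-16 genes gave no direction. *hsp-16.2* was at 325 and 779 at 20°C and at 408 and 776 at 25°C (log2 fold change 0.16, limma adjusted p = 0.86), and in each of the 6 family members the groups overlapped. The family summed to 2542 and 6300 at 20°C and to 3202 and 6671 at 25°C, so that library B was the higher at each temperature, as in the intestinal sum. The median of the family was 0.27, and -0.40 without library A at 20°C.

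Among genes of protein synthesis and turnover, most cytoplasmic ribosomal protein and proteasome genes lay below as well. Of 75 cytoplasmic ribosomal protein genes, 54 lay below (72.0%) and 4 above (5.33%), with a median of -0.19 and 1 higher and 29 lower at an unadjusted p under 0.05. *rpl-3* was at 59278 and 56907 at 20°C and at 39115 and 40271 at 25°C (log2 fold change -0.55, limma adjusted p = 0.067). Of 32 proteasome genes, 24 lay below (75.0%) and 0 above, with a median of -0.21, none past the threshold and 12 lower at an unadjusted p under 0.05. The lowest of them was *rpt-4*, an ATPase of the regulatory particle, with 3416 and 3671 at 20°C and 2588 and 2424 at 25°C (log2 fold change -0.50, limma adjusted p = 0.10). *icd-1* and *icd-2*, the subunits of the nascent chain complex that binds new proteins at the ribosome, had log2 fold changes of -0.66 and -0.64 (limma adjusted p = 0.061 and 0.064). The mitochondrial ribosomal proteins differed from the cytoplasmic ones in their counts, with 30 of 66 above (45.5%) and 9 below (13.6%). Among all genes the shares were 36.2% and 20.0%. The median of the 66 was 0.07 and turned to -0.05 with median ratio scaling.

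**Figure D3:**
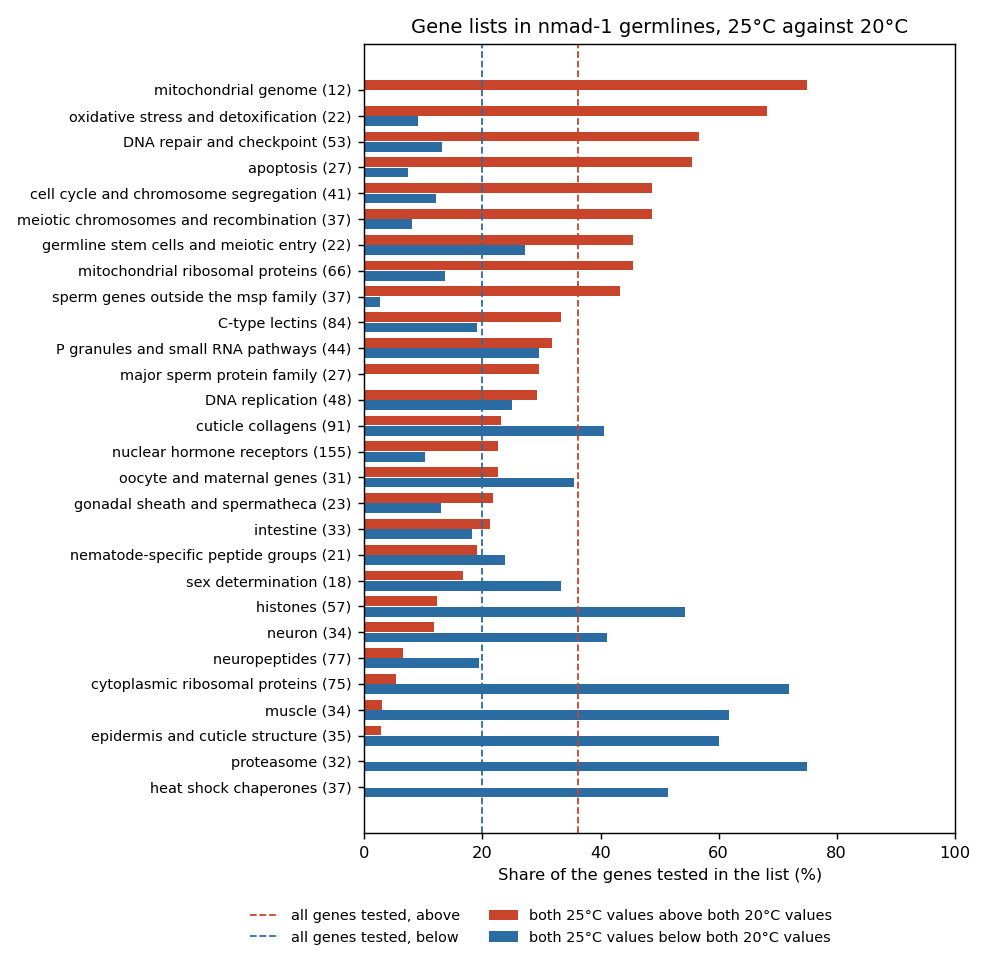
Share of the genes tested in each list whose values at 25°C both lay above (red) or both lay below (blue) both 20°C values in *nmad-1* germlines. The number tested is given in parentheses and lists of fewer than 12 genes are left out. Dashed lines give the shares among all genes tested, 36.2% above and 20.0% below. The heat shock and proteasome lists have no red bar, and the mitochondrial genome and the major sperm protein family have no blue bar.

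The list with the highest share above was the protein-coding genes of the mitochondrial genome, which encode subunits of the respiratory chain. Of 12 tested, 9 lay above (75.0%) and none below, beside 36.2% and 20.0% of all genes. The median log2 fold change was 0.67, beside 0.13 for all genes. None passed the threshold. The 9 had an unadjusted p under 0.05 by limma, as did 14.8% of all genes in this direction. The 12 genes summed to 65767 and 57304 at 20°C and to 134501 and 98606 at 25°C. *ctc-3*, a subunit of cytochrome oxidase, was at 13125 and 11624 at 20°C and at 33627 and 24304 at 25°C (log2 fold change 1.21, limma adjusted p = 0.066). *nduo-5*, a subunit of complex I, was at 2640 and 2432 at 20°C and at 5116 and 4704 at 25°C (0.95, limma adjusted p = 0.055). *nduo-3*, *ndfl-4* and *nduo-2*, the lowest of the 12, overlapped.

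Genes of defence against oxidants lay above in 15 of 22 cases (68.2%) and below in 2 (9.09%), beside 36.2% and 20.0% of all genes. Their median was 0.34, beside 0.13 for all genes, and none passed the threshold. At an unadjusted p under 0.05 by limma, 9 were higher and 2 lower, beside 14.8% and 6.96% of all genes. *daf-16*, the FOXO factor that acts below the insulin receptor, was at 3707 and 3893 at 20°C and at 6619 and 5888 at 25°C (log2 fold change 0.72, limma adjusted p = 0.067). *trxr-2*, the mitochondrial thioredoxin reductase, was at 205 and 231 at 20°C and at 530 and 484 at 25°C (1.22, limma adjusted p = 0.084). Both lay well clear of their 20°C values. *prdx-2*, a peroxiredoxin, had the opposite order, with 14667 and 13933 at 20°C and 10326 and 10295 at 25°C (-0.47, limma adjusted p = 0.084).

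For the genes that guard the genome, none of 53 DNA repair and checkpoint genes passed the threshold. Of the 53, 30 lay above (56.6%) and 7 below (13.2%), beside 36.2% and 20.0% of all genes. At an unadjusted p under 0.05, 18 were higher and 0 lower. With the spread estimated over all 8 libraries 11 were higher and 0 lower, beside 10.6% and 5.34% of all genes. Their median of 0.22, beside 0.13 for all genes, was 0.10 with median ratio scaling, beside 0.01 for all genes. The smallest p was that of *polq-1*, the polymerase of theta-mediated end joining, at 2515 and 2736 at 20°C and 4416 and 4431 at 25°C (log2 fold change 0.75, limma adjusted p = 0.064). *rad-51*, the recombinase of meiotic strand exchange, was at 1802 and 1923 at 20°C and at 2460 and 2141 at 25°C (0.30, standard error 0.12, limma adjusted p = 0.22). In both genes the groups did not overlap.

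Of 37 genes of meiotic chromosomes and recombination, 18 lay above (48.6%) and 3 below (8.11%), with a median of 0.14, and 10 were higher and 0 lower in the fit over 8 libraries, beside the same shares of all genes. The median was 0.02 with median ratio scaling. *syp-1*, of the synaptonemal complex, was at 1266 and 1293 at 20°C and at 2075 and 1990 at 25°C (log2 fold change 0.67, limma adjusted p = 0.083). *spo-11*, which makes meiotic breaks, was at 917 and 994 at 20°C and at 1662 and 1373 at 25°C (0.66, standard error 0.15, limma adjusted p = 0.11). Of 27 apoptosis genes 15 lay above (55.6%) and 2 below (7.41%), against 36.2% and 20.0% of all genes. Their median of 0.20 was 0.08 with median ratio scaling and 0.09 without library A at 25°C. *cps-6*, the endonuclease G of germ cell death, was at 852 and 753 at 20°C and at 1740 and 1539 at 25°C (1.03, limma adjusted p = 0.066). Among 41 cell cycle genes, of which 20 lay above (48.8%) and 5 below (12.195%), *klp-18*, a kinesin of the acentrosomal meiotic spindle, was at 4274 and 4429 at 20°C and at 7865 and 7573 at 25°C (0.83, limma adjusted p = 0.055).

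DNA replication genes were split, with 14 of 48 above (29.2%) and 12 below (25.0%), beside 36.2% and 20.0% of all genes. Their median of 0.04 turned to -0.08 with median ratio scaling. *top-2*, topoisomerase II, was at 14593 and 15755 at 20°C and at 15351 and 16820 at 25°C (log2 fold change 0.08, standard error 0.09, limma adjusted p = 0.61), and its direction turned under each other scaling. *mcm-4*, of the replicative helicase, was at 5910 and 7015 at 20°C and at 6050 and 5924 at 25°C (-0.11, standard error 0.11, limma adjusted p = 0.59). *mtss-1*, the single-strand binding protein of mitochondrial DNA, was at 1679 and 1511 at 20°C and at 1330 and 1199 at 25°C (-0.33, standard error 0.13, limma adjusted p = 0.21). Of the 3, only *mtss-1* had groups that did not overlap.

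Among 31 oocyte and maternal genes, 11 lay below (35.5%) and 7 above (22.6%), beside 20.0% and 36.2% of all genes. Their median of -0.08 turned to 0.06 without library B at 20°C and to 0.03 without library B at 25°C. *cpg-3*, a chondroitin proteoglycan of the eggshell, was at 10645 and 12884 at 20°C and at 7236 and 6625 at 25°C (log2 fold change -0.76, limma adjusted p = 0.080). *oma-1*, a regulator of oocyte maturation, overlapped, with 8979 and 10516 at 20°C and 10180 and 8344 at 25°C (-0.08, limma adjusted p = 0.76). Histone transcripts, most of which lack a poly(A) tail and whose copies can share reads, lay below in 31 of 57 cases (54.4%) and above in 7, with a median of -0.59. *his-4* was at 1325 and 950 at 20°C and at 362 and 400 at 25°C (-1.56, limma adjusted p = 0.066).

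By chromosome, the median log2 fold change was between 0.14 and 0.20 on each of the 5 autosomes and -0.21 on chromosome X. On X, with 1740 genes, 33.4% lay below, against 20.0% of all genes. Against library A at 20°C alone the median of X was -0.46, with the autosomes between 0.03 and 0.13, and against library B alone it was 0.08, with the autosomes between 0.18 and 0.26. X was thus the lowest of these chromosomes against each 20°C library, by a wider margin against library A, the one with the high muscle and neuronal sums. In WT the median of X was -1.09, with the autosomes between -0.59 and 0.03. The part of muscle and neuronal tissue in these values was not tested.

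Whether WT germlines responded alike was tested as an interaction over the 8 libraries, on 12519 genes with a mean of at least 10. The 2 temperature effects share no library. At a limma adjusted p under 0.05, 735 genes differed (5.87%), 673 of them with the more positive effect in *nmad-1* (5.38%) and 62 with the more negative one (0.495%). By limma it was 0 without WT library A at 20°C, WT library B at 20°C or WT library A at 25°C (2536, 2260 and 2716 at an unadjusted p under 0.05), 18 without WT library B at 25°C, 78 without *nmad-1* library B at 25°C and 3506 without *nmad-1* library A at 20°C.

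Of the 12 genes past the threshold in *nmad-1*, 6 differed from WT in their temperature effect. The 12 were chosen by the *nmad-1* effect, which is part of the interaction, so this share cannot be set against that of all genes. On the scale common to the 8 libraries, *fog-1* was at 929 and 889 in WT at 20°C and at 976 and 865 in WT at 25°C, and in *nmad-1* it was at 1051 and 1053 and at 3615 and 3255. The 25°C libraries of *nmad-1* thus stood alone, and the difference of the effects was 1.69 on the log2 scale (limma interaction adjusted p = 0.018). *fog-3* was at 11.2 and 12.08 in WT at 20°C and 25.0 and 22.3 in WT at 25°C, against 41.4 and 46.8 and then 529 and 512 in *nmad-1*. It was higher at 25°C in both genotypes, by 0.96 in WT, and the effects differed by 2.57 (limma interaction adjusted p = 0.026). *ttr-51* was at 350.3 and 301 in WT at 20°C and at 436 and 487 in WT at 25°C, and its difference of 1.66 had a limma interaction adjusted p of 0.020.

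*irg-5* was at 476 and 368 in WT at 20°C and at 746 and 1778 in WT at 25°C, and the effects differed by 2.31 (limma interaction adjusted p = 0.042). The remaining pair was more negative in *nmad-1*. *skpo-1* was at 8429 and 8899 in WT at 20°C and at 6723 and 6456 at 25°C, a difference of -0.76 (limma interaction adjusted p = 0.024), and *C39D10.7* was at 29528 and 32864 and then 21209 and 20739, a difference of -0.53 (limma interaction adjusted p = 0.035). At 25°C the genotypes were close together in *C39D10.7*, with 20322 and 19982 in *nmad-1*, and at 20°C *nmad-1* was the higher, at 43313 and 43422.

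**Figure D4:**
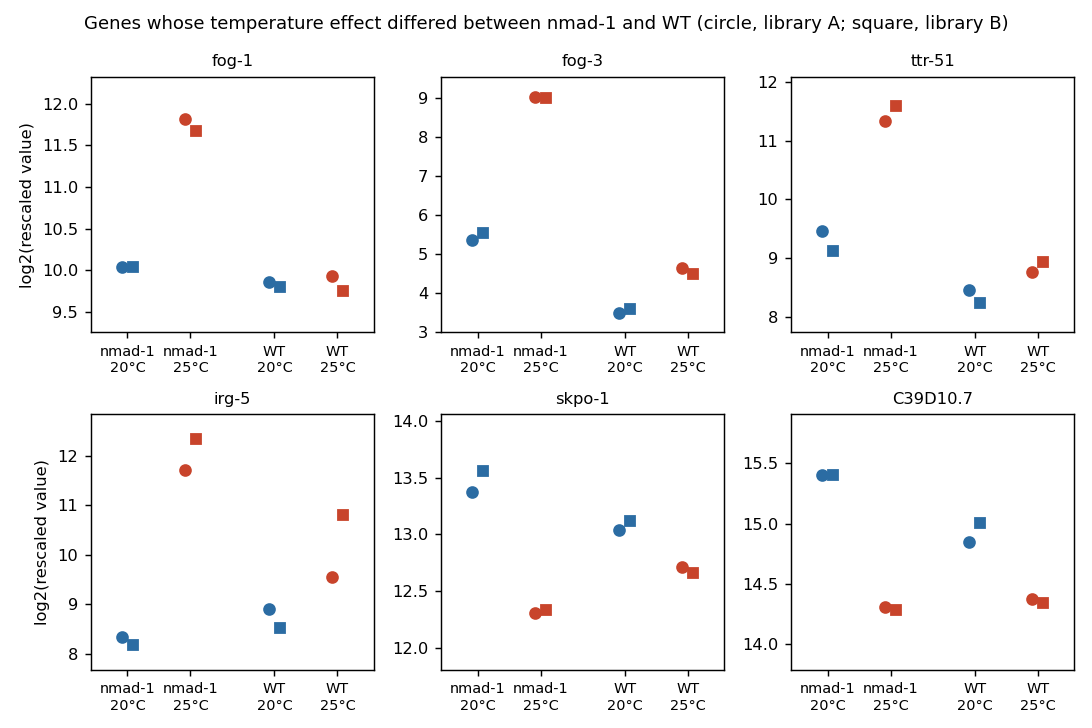
The 6 genes past the threshold in *nmad-1* whose temperature effect differed from that of WT, as log2 of the value rescaled over all 8 libraries. Each point is 1 library, circles are library A and squares library B, blue is 20°C and red is 25°C. For *fog-1* the 2 *nmad-1* libraries at 25°C stand above the other 6, and for *C39D10.7* the 2 *nmad-1* libraries at 20°C do.

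In WT itself, tested in the fit over 8 libraries, 5.67% of genes were higher and 25.5% lower at 25°C, and 11 of the 12 genes passed in the same direction as in *nmad-1*, with *fog-1* the exception. The other 6 genes did not pass the interaction test. *lrg-1*, *timm-17B.2*, *maph-1.3*, *C27C7.1* and *snpc-1.3* were higher in WT at 25°C too, by 3.16, 3.71, 1.71, 2.58 and 1.95 on the log2 scale, past the threshold in the fit over 8 libraries. *col-17* was at 455 and 878 in WT at 20°C and at 0 in both WT libraries at 25°C. All 17 genes near absent at 25°C in *nmad-1* were lower in WT at 25°C too, past the threshold in the fit over 8 libraries. Their WT log2 fold changes lay between -9.31 (*col-17*) and -4.22 (*abu-8*), with -8.19 for *sqt-1* and -8.86 for *dpy-13*. None of the 17 passed the interaction test. Over the whole lists, the WT median was -2.04 for the cuticle collagens and -2.87 for the epidermal genes. *snpc-1.3* rose from 18.2 and 26.7 to 82.6 and 94.3 in WT and from 69.4 and 75.8 to 759 and 718 in *nmad-1*. The difference of 1.38 missed the threshold (limma interaction adjusted p = 0.068). Outside the 12 genes, *top-2* rose by 0.48 in WT (limma adjusted p = 0.0058 in the fit over 8 libraries). Its difference of -0.40 missed the threshold too (limma interaction adjusted p = 0.079). *mcm-4* and *mtss-1* changed by 0.05 and -0.10 in WT. Their differences were -0.16 and -0.23 (limma interaction adjusted p = 0.49 and 0.35).

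Lists were read against the 5.38% of all genes with the more positive effect in *nmad-1*. Of 33 intestinal genes tested 17 had it, of 76 C-type lectins 16 and of 95 collagens 9. It was found in 0 of 34 muscle, 0 of 34 neuronal, 0 of 53 DNA repair, 0 of 37 meiotic and 0 of 48 replication genes. In these lists the share of all genes would give few. No gene of these lists had the more negative effect in *nmad-1* either. That effect was found in 0.495% of all genes, a share that would give few or none in lists of this size. The intestinal genes summed to 297778 and 351123 in WT at 20°C and to 47493 and 80537 in WT at 25°C, on the common scale, and to 143139 and 445795 in *nmad-1* at 25°C. The WT libraries at 25°C were the lowest of the 8 in muscle, intestine, epidermis and neuron. The part of this in the interaction calls was not tested. *dod-19*, named after its values were seen, was at 439 and 613 in WT at 20°C and at 159 and 88.3 in WT at 25°C, and at 774 and 490 and then 2035 and 2640 in *nmad-1*, a difference of 4.03 (limma interaction adjusted p = 0.018).

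**Figure D5:**
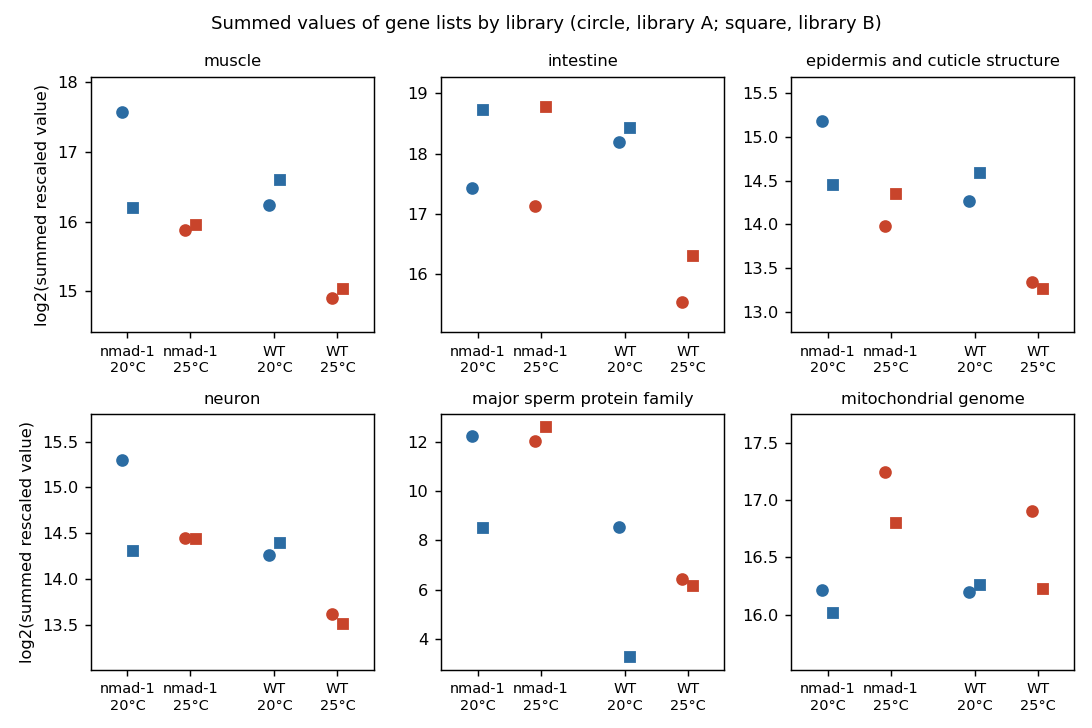
Summed rescaled value of 6 gene lists in each of the 8 libraries, on a log2 axis. Each point is 1 library, circles are library A and squares library B, blue is 20°C and red is 25°C. The muscle and neuron sums are highest in *nmad-1* library A at 20°C, the WT libraries at 25°C are lowest in the 4 somatic lists, and the major sperm protein sums of the 2 *nmad-1* libraries at 20°C lie far apart.

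The median log2 fold change of the 37 chaperones was -0.26 in WT, beside -0.14 for all genes in WT and -0.20 for the chaperones in *nmad-1*. That of the 6 hsp-16 genes was -3.03 in WT, and none of them passed the interaction test. Among the chaperones, the temperature effect was more negative in *nmad-1* for 3 of the 37 genes, the chaperonin subunits *cct-2*, *cct-5* and *cct-8*. It was more positive for 4, and the shares of all genes were 0.495% and 5.38%. *cct-5* was at 11608 and 12065 in WT at 20°C and at 12423 and 12173 in WT at 25°C, and at 10580 and 10903 and then 6624 and 7016 in *nmad-1*, a difference of -0.71 (limma interaction adjusted p = 0.021). Only the 25°C libraries of *nmad-1* stood apart. Of 31 oocyte and maternal genes 5 had the more negative effect in *nmad-1*, among them *cpg-3*, and of 55 histone genes 5 did, beside the same 0.495%.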

How the data were processed

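The authors sequenced mRNA of extracted germlines and trimmed paired reads to 50 bp. Per the submitters' processing notes, Bowtie2 2.2.9, RSEM 1.3.0 and ce10 were used, and the methods name WS220. The deposited values are a signal per gene, which is RSEM's expected count divided by a size factor of EBSeq, in 1 table per temperature. In each library 90.7% to 91.9% of values came out as whole reads (tolerance 0.001), so no count test was run. The authors also deposited tables of comparisons, with a posterior probability and a fold per gene, which were not used.

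The group of a column was taken from the comparison that the sample descriptions name, and from its order. They carry no replicate numbers, and A and B only tell libraries apart. The methods give 2 biological replicates per group, and replicates differed by more than sampling noise (chi-square per degree of freedom 59.7 at 20°C and 29.3 at 25°C in *nmad-1*). The 21 ribosomal RNA genes were dropped, and the remaining values were rescaled to the same total, over the 4 *nmad-1* libraries or, for comparisons with WT, over all 8. Genes with a mean of at least 10 were tested on log2(value + 1) by limma 3.58.1 with a mean trend in R 4.3.3, two-sided with Benjamini-Hochberg adjustment, and the procedure was tested on simulated data. Of 46739 gene IDs, 43720 matched a current symbol.

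The members and lists were chosen with earlier results of these data known. Genes named by rule were *nmad-1*, the 4 largest increases and 4 largest decreases that passed (no overlap, mean over 4 libraries 50 or more) (3 decreases met this), the 2 members past the threshold with the smallest p in each direction in 8 germline and chaperone lists, and 14 fixed names. All other genes were named after their values were seen. Limits for counts of 0 cover counting error only.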

Additional observations from a re-analysis of the deposited data

Results flagged for a closer look

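The temperature effect of 6 genes past the threshold in *nmad-1* germlines differed from that in WT germlines by the interaction test of limma. The difference, *nmad-1* minus WT on the log2 scale, was 2.31 for *irg-5*, 2.57 for *fog-3*, 1.69 for *fog-1*, 1.66 for *ttr-51*, -0.76 for *skpo-1* and -0.53 for *C39D10.7*. These genes were picked by the *nmad-1* effect, which is also part of the interaction. In each of them both 25°C values of *nmad-1* lay on one side of both its 20°C values, which passing the threshold had made likely beforehand. Groups of 2 libraries are too small for a search for single outlying libraries.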

How the results depend on the processing

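All 12 genes past the threshold in *nmad-1* kept their direction under every alternative, and their highest limma adjusted p over the settings that kept all libraries was 0.22 for each. The count of 12 became 345 with median ratio scaling, 0 with upper quartile scaling, 470 with the deposited scaling, 84 with no filter on low values (42 higher and 42 lower), 0 without the mean trend in limma (2047 at an unadjusted p under 0.05) and 1994 in the fit over 8 libraries. Without 1 library it was between 0 and 1767. The share of higher calls was 75% as reported, 48.1% with median ratio scaling and 49.6% with the deposited scaling. The cause of these differences was not tested. The count of 735 genes whose effects differed from WT became 333 with upper quartile scaling, 381 with a mean of at least 100 (fewer genes tested) and 0 without the trend (3067 at an unadjusted p under 0.05), and was between 0 and 3506 without 1 library. With upper quartile scaling 71.5% of those calls were more positive in *nmad-1*, against 91.6%.

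The log2 fold change of *top-2* turned to -0.034, -0.041 and -0.022 with median ratio, upper quartile and deposited scaling. Without 1 library, that of *mcm-4* was between -0.23 and 0.019 (the highest without library B at 20°C), that of *oma-1* between -0.22 and 0.067 (above 0 without library B at 20°C or 25°C), that of *vit-2* between -0.11 and 1.70, and that of *hsp-16.2* between -0.47 and 0.79, the last 2 below 0 without library A at 20°C or library B at 25°C. None of these genes passed the threshold. The median of the DNA replication list was -0.03 without library A at 20°C and -0.01 without library A at 25°C, and that of the P granule list was -0.01 without library A at 20°C.

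No paired analysis was possible because the columns carry no replicate numbers. With 2 libraries per group and the temperatures in separate tables, the spread is poorly known, and depth limits low genes: 3 reads in 1 *nmad-1* library correspond to between 2.21 and 3.61 rescaled units.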

Other observations

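Some genes outside the lists, named after their values were seen, had a temperature effect that differed from WT. *sams-3*, an S-adenosylmethionine synthetase, was at 3874 and 4478 at 20°C and at 2204 and 1949 at 25°C in *nmad-1* (log2 fold change -1.01, limma adjusted p = 0.062), beside -0.02 in WT, and the effects differed by -0.99 (limma interaction adjusted p = 0.021). *act-2*, an actin, was at 31614 and 35061 at 20°C and at 19839 and 21019 at 25°C, a log2 fold change of -0.71 beside -0.07 in WT, and a difference of -0.63 (limma interaction adjusted p = 0.034). *prg-2* had a log2 fold change of 0.07 in WT, and its effects differed by -1.06 (limma interaction adjusted p = 0.029). *far-2*, a fatty acid and retinol binding protein, was at 14688 and 15759 at 20°C and at 26851 and 25531 at 25°C, a log2 fold change of 0.78 beside 0.05 in WT, and a difference of 0.73 (limma interaction adjusted p = 0.025).

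Other genes had fold changes of like size in both genotypes. *H11L12.1* was at 43.98 and 68.2 at 20°C and at 564 and 515 at 25°C in *nmad-1* (log2 fold change 3.28, limma adjusted p = 0.055), beside 3.82 in WT. *F10E7.2* was at 506 and 407 at 20°C and at 1576 and 1416 at 25°C (1.72, limma adjusted p = 0.055), beside 1.76 in WT. *pud-2.1*, which shares its values with the near-identical *pud-2.2*, was at 501 and 558 at 20°C and at 104.2 and 123 at 25°C (-2.22, limma adjusted p = 0.055), beside -2.11 in WT.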
